A study of Mus musculus with 52 samples.

Results

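The subject is a group of 6 genes for transcriptional regulators of the circadian clock, followed through every bulk RNA-seq library of a study of light and the suprachiasmatic nucleus (SCN), the paired hypothalamic nucleus that holds the master clock of mammals. They are the activator genes Clock, Npas2 and Arntl and the repressor genes Bhlhe40, Bhlhe41 and Ciart. They were selected by gene name, with no threshold on their values, though with earlier results of these data known, and all 6 were found among the 21999 genes of each deposited table. All 6 passed the filter on low counts in both experiments, where 14524 genes were tested after light pulses and 15001 in the Npas4 comparison.

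CLOCK, or its close relative NPAS2, pairs with ARNTL (also called BMAL1), and the pair binds E-boxes in DNA to switch on the Period and Cryptochrome genes, whose proteins feed back to silence the pair. BHLHE40 (DEC1) and BHLHE41 (DEC2) are E-box-binding repressors that form a further feedback arm, and CIART (CHRONO) represses the CLOCK and ARNTL complex by binding ARNTL. The Arntl gene is itself driven by ROR receptors and held down by REV-ERB receptors. In the SCN, light at night reaches the clock through retinal nerve endings, and rapid induction of Per1 is its best-known transcriptional trace.

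All mice were males of 11-12 weeks, and each bulk library pooled 6 pairs of SCN. In the light-pulse experiment lights were turned on for wild-type (WT) mice at circadian time (CT) 17, in the subjective night, and tissue was taken after 0.5 h (4 libraries) or after 1 h, 3 h or 6 h (2 libraries at each time). Dark controls never saw the pulse, and were sampled at CT17 (4 libraries) and at CT23 (2 libraries). In the Npas4 experiment Npas4-/- mice (KO), which lack a bHLH-PAS factor that neuronal activity induces, and WT littermates were given 1 h of light at CT17 or stayed in the dark, and each of the 4 groups has 3 libraries. H3K27ac and H3K4me3, histone marks of active regulatory DNA and of promoters, were profiled in WT SCN after 1 h of light and in the dark, with 1 peak list for each and 2 pairs of SCN per sample. Whether the KO lacks Npas4 in all cells, and which part of the gene is deleted, is not given in the sources used here.

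Of the light-pulse libraries, 4 carry an s at the end of their titles, a mark that the labels do not explain. They were deeper (27413860 to 30149286 counted reads) than the other 12 (12477382 to 15369985), and the Npas4 comparison was sequenced to 26638939 to 32097975 reads. Same-numbered libraries with and without the s were further apart than sampling noise (chi-square divided by its degrees of freedom 10.4 to 30.3). That distance includes any effect of the suffix itself, so it cannot say whether they come from the same pools. They were kept as separate libraries but may share pools, and p-values measure the spread between libraries. Of 14524 genes, 21.8% differed between libraries with and without the suffix, and none of the 6 clock genes did (the closest was Npas2, with a log2 difference of 0.21, adjusted p = 0.106 by edgeR). The first principal component carried 29.6% of the variance of the light-pulse libraries, and on it 0.5 h replicate 2 (37.0) lay with the suffix s libraries (10.0 to 35.9). Summed markers of meningeal fibroblasts ran from 101.5 to 987 CPM in 0.5 h libraries and from 87.1 to 318 CPM in CT17 dark libraries, and their part in the 0.5 h results was not tested. Markers of SCN neurons were detected throughout, with sums of 916 to 1393 CPM in the light-pulse libraries and 1356 to 3048 CPM in the Npas4 experiment, and no marker of the 7 lists of cell types was at 0 in all libraries of a group.

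Since several of these factors bind the E-box, the members' RefSeq promoter windows were searched on both strands. The windows reach from 250 bases before to 50 after a start site in GRCm38.p6, the assembly known as mm10. The motifs were the E-box CACGTG, the related CACGTT, the cAMP response element TGACGTCA and its shorter form (TGACG), which overlaps it. The core AGGTCA of the ROR element was searched as well, without the bases that flank it in a full element. The windows of Ciart and Bhlhe41 are shown because they were the only members' windows with an E-box. The later Arntl window is shown because it holds AGGTCA. All are printed 5′ to 3′ on the gene's strand, and capitals mark the E-boxes and AGGTCA.
Ciart, chr3:95882179-95882478, minus strand: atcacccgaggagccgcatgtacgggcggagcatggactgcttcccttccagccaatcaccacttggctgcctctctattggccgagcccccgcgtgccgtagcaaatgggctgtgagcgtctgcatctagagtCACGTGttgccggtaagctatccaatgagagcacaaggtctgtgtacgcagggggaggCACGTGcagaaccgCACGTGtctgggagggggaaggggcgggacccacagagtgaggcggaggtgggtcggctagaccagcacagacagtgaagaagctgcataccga
Bhlhe41, chr6:145865371-145865670, minus strand: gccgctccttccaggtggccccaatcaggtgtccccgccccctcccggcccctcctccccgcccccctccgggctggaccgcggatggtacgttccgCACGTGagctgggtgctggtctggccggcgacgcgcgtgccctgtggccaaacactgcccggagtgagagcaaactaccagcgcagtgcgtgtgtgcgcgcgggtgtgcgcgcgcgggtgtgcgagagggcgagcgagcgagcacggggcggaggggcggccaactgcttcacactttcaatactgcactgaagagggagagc
Arntl, chr7:113207261-113207560, plus strand: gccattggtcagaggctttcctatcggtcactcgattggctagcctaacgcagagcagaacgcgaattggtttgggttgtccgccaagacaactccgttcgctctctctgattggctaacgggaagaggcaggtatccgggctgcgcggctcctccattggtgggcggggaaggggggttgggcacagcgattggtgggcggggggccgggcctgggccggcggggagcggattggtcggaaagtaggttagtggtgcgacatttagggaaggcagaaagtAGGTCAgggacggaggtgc
Ciart has 3 E-boxes, at positions -116, -58 and -44 from the start site. Of 32851 promoter windows, 7.15% hold at least 1 E-box and 0.0883% hold 3 or more. Bhlhe41 has 1 E-box, at position -153. In Arntl AGGTCA begins 31 bases after the start site, and 16.3% of windows hold that sequence. Of the 3 Clock windows 1 holds it as well, on the opposite strand at position -119. Whether these matches are full ROR elements was not tested. No member's window holds CACGTT or either form of the cAMP response element, and the Npas2 window holds none of the motifs searched. Bhlhe40 was not searched.

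Levels of different genes can be compared per length, in RPKM. Clock was the most abundant of the 6, with a median of 16.4 RPKM over the 28 libraries (14.1 to 18.9). Bhlhe40 followed with a median of 12.8 RPKM (7.83 to 17.6), Bhlhe41 with 11.9 RPKM (9.60 to 14.2) and Arntl with 10.2 RPKM (8.67 to 13.5). Npas2 had a median of 4.85 RPKM (4.18 to 6.37) and Ciart 3.09 RPKM (2.30 to 4.55). Every neighbouring pair in this order overlapped in range except Arntl and Npas2, whose ranges were apart. Relative to the median, the ranges of Bhlhe40 and Ciart were the widest. Ciart was counted least, with 71 to 266 reads per library, against 2693 to 8110 for Clock, and its values are the least precise.

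**Figure D1:**
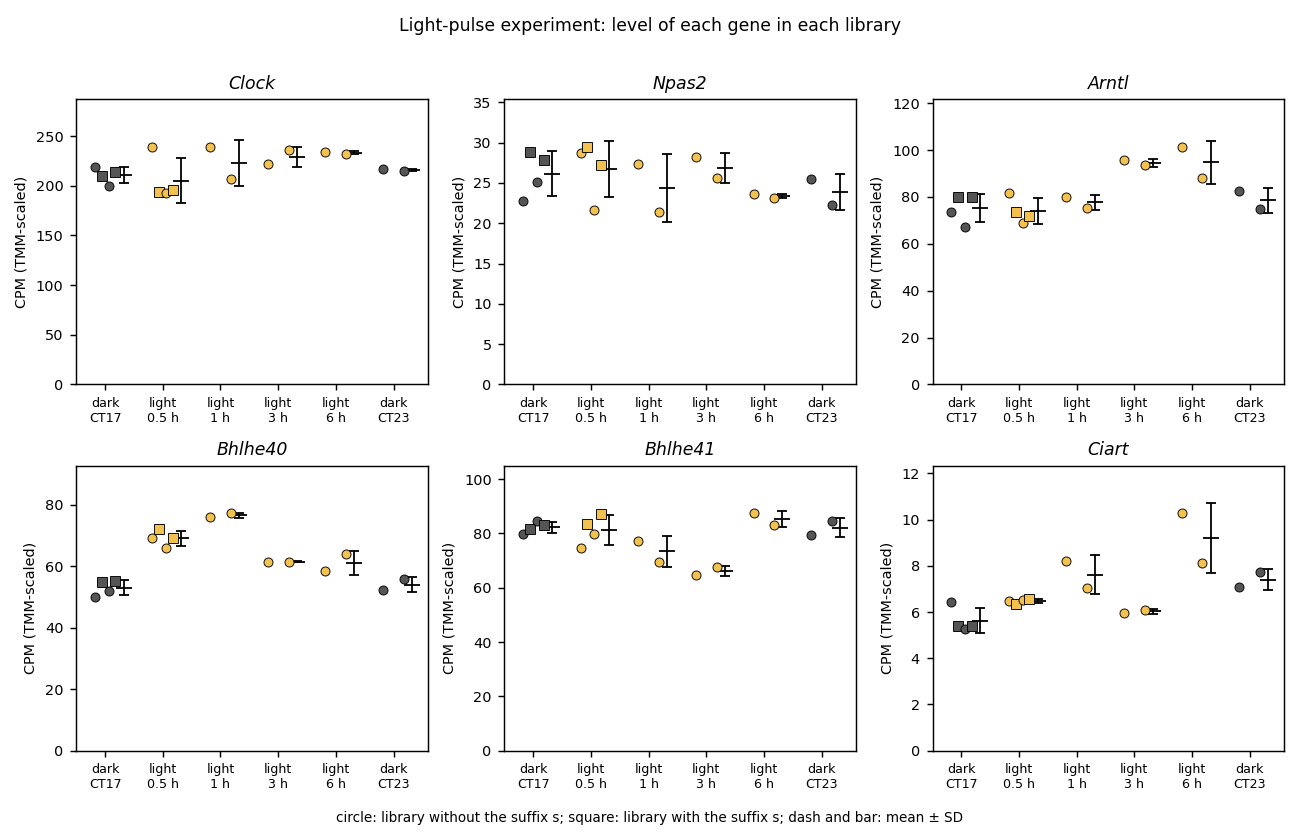
Level of each of the 6 genes in every light-pulse library, in CPM on the TMM-scaled total (y axis, from 0), by group along the x axis; circles and squares are libraries without and with the suffix s, and dashes with bars are the mean and SD. Bhlhe40 is highest at 1 h (76.7 CPM on average), Bhlhe41 lowest at 3 h (66.2 CPM), and Clock and Npas2 were called in no comparison.

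Levels of 1 gene across libraries are given in CPM, read counts scaled to the TMM-adjusted library total. Of the activator genes, Clock and Npas2, which encode the alternative partners of ARNTL, passed the test in none of the 15 comparisons made. Clock ran from 199.8 to 219 CPM in CT17 dark libraries, 193 to 239 CPM after 0.5 h, 207 to 239 CPM after 1 h, 222 to 236 CPM after 3 h and 232 to 234 CPM after 6 h of light, with 215 and 217 CPM in CT23 dark libraries. Both 3 h libraries lay above the CT17 dark ones and both 6 h libraries above the CT23 dark ones, and the other light groups overlapped the dark. Its log2 changes against the dark lay between -0.04 and 0.11, and the widest of their 95% intervals reached from -0.10 to 0.31 (6 h against CT23). Npas2 ran from 22.7 to 28.9 CPM in CT17 dark libraries and stayed between 21.4 and 29.5 CPM in all light groups. Its log2 changes against the dark lay between -0.03 and 0.15, with intervals that reached from -0.31 to 0.41.

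Arntl rose at 3 h of light. It had 95.7 and 93.4 CPM in the 3 h libraries, against 73.7, 80.1, 67.2 and 79.9 CPM in the CT17 dark libraries. Both 3 h libraries lay above all 4 dark ones. The log2 change was 0.36 ± 0.09 (SE; 1.28-fold; adjusted p = 0.0435, edgeR's quasi-likelihood test with Benjamini-Hochberg adjustment over all genes, as throughout). At 6 h it had 101 and 88.2 CPM, against 82.4 and 74.9 CPM in CT23 dark libraries, without overlap, but the log2 change of 0.27 ± 0.10 did not pass (adjusted p = 0.314). At 0.5 h and 1 h its log2 changes were -0.03 and 0.08 and the groups overlapped. A 3 h pulse ends later than the CT17 controls, so that 3 h of light and 3 h of circadian time cannot be told apart there. In darkness Arntl averaged 78.6 ± 5.34 CPM at CT23 (SD, n = 2) and 75.2 ± 6.12 CPM at CT17 (SD, n = 4), a log2 change of 0.09 (adjusted p = 0.777).

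Among the repressor genes Bhlhe40 rose within 0.5 h of light. After 0.5 h of light it had 69.3, 72.0, 66.0 and 69.2 CPM, against 50.05, 54.9, 52.0 and 55.4 CPM in CT17 dark libraries. Each of the 4 light libraries lay above each of the 4 dark ones, though same-numbered libraries with and without the s may share pools. The log2 change was 0.38 ± 0.04 (1.30-fold; adjusted p = 0.000147). It was the only 1 of the 6 genes called at 0.5 h, where 0.468% of all genes tested were called. The libraries without the suffix s, all of label batch 1 here, gave 0.41 (adjusted p = 0.0571), and those with it, all of label batch 2, gave 0.37 (adjusted p = 0.00863). Without 0.5 h replicate 2 the value was 0.39 (adjusted p = 0.000468). Over 9 alternative fits, among them one with same-numbered libraries summed, the value ran from 0.37 to 0.41, and Bhlhe40 was called in 8. If same-numbered libraries share pools, the main p-value rests on fewer independent samples than libraries.

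At 1 h Bhlhe40 was at its highest, with 76.1 and 77.3 CPM in the light libraries. The log2 change from CT17 dark was 0.57 ± 0.06 (1.49-fold; adjusted p = 2.53e-05), and again no other member was called, against 1.27% of all genes. The fit with terms for both the label batch and the suffix gave 0.48 (adjusted p = 0.117). All 1 h libraries are of batch 2 and without the suffix, a kind of library that CT17 does not have. The summed oligodendrocyte markers were 4096 to 6011 CPM in 1 h libraries and 7549 to 8838 CPM in CT17 dark libraries, and those of neurons of neighbouring nuclei 419 to 421 CPM in 1 h and 209 to 403 CPM in CT17 dark libraries. The median log2 change of the 7 neuron markers was -0.65, against the direction of their sum, and none was called. The part of these markers in the result was not tested. In bulk tissue, fewer cells of a type and less RNA per cell cannot be told apart. The step of 0.19 between 1 h and 0.5 h of light did not pass (adjusted p = 0.322; 0.496% of all genes called). It was the only member with an unadjusted p under 0.05 there, and DESeq2 called 0 members.

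Bhlhe40 fell between 1 h and 3 h of light. It had 61.4 and 61.6 CPM at 3 h, below both 1 h libraries, and the log2 change of -0.32 ± 0.06 passed (adjusted p = 0.0190; 1 of 6 members, against 1.53% of all genes). Leaving out any of the 4 libraries kept the value between -0.33 and -0.31 with adjusted p between 0.113 and 0.146. At 3 h it was still above CT17 dark, by 0.25 ± 0.06 (adjusted p = 0.0329). At 6 h it had 58.4 and 63.9 CPM, against 52.3 and 55.9 CPM in CT23 dark libraries, without overlap, and the log2 change of 0.18 ± 0.07 missed the threshold (adjusted p = 0.336).

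Bhlhe41, the paralog of Bhlhe40, was not called at 0.5 h or 1 h. After 0.5 h of light it had 74.6, 83.6, 79.7 and 87.2 CPM, against 79.6, 81.8, 84.6 and 83.1 CPM in CT17 dark libraries. The log2 change was -0.01, with a 95% interval from -0.12 to 0.09 that excludes the change measured for Bhlhe40. At 1 h it had 77.3 and 69.4 CPM, below all CT17 dark libraries, a log2 change of -0.13 (adjusted p = 0.708). At 3 h it had 64.9 and 67.5 CPM, below every CT17 dark library, and the log2 change of -0.27 ± 0.07 passed (adjusted p = 0.0466). At 6 h it was higher again, with 87.4 and 83.1 CPM, and the step between 6 h and 3 h of 0.37 ± 0.08 passed (adjusted p = 0.0377; 1 of 6 members, against 0.633% of all genes). The 6 h libraries overlapped the CT23 dark libraries (79.6 and 84.5 CPM), with a log2 change of 0.05.

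At 3 h of light, then, 3 of the 6 members were called against CT17 dark, Arntl and Bhlhe40 higher and Bhlhe41 lower, where 3.24% of all genes were called. These 3 calls are close to the threshold. Leaving out any of the 4 CT17 dark or the 2 3 h libraries ended all 3 calls, with adjusted p between 0.0530 and 0.212 for Arntl, 0.0528 and 0.178 for Bhlhe40 and 0.0691 and 0.260 for Bhlhe41, while the log2 changes stayed within 0.29 to 0.38 for Arntl, 0.23 to 0.26 for Bhlhe40 and -0.30 to -0.23 for Bhlhe41. The fit with both label batch and suffix gave 0.50 for Arntl (adjusted p = 0.285), 0.16 for Bhlhe40 (adjusted p = 0.668) and -0.36 for Bhlhe41 (adjusted p = 0.319). Leaving out any library of the step between 6 h and 3 h likewise gave Bhlhe41 log2 changes of 0.33 to 0.40 with adjusted p between 0.111 and 0.330. The summed oligodendrocyte markers were 5953 to 6517 CPM in 3 h libraries and 7549 to 8838 CPM in CT17 dark libraries, and their part in these results was not tested. The comparisons at 0.5 h, 1 h and 3 h share the CT17 dark libraries. Every pulse began at CT17, so groups lit for longer were also sampled later, and no dark libraries match the 3 h group in time. Length of light and circadian time cannot be told apart in the 3 h comparisons, for any member, nor in the steps between light groups.

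At 6 h against CT23 dark edgeR and DESeq2 each called 0 of the 6 members, against 1.41% of all genes by edgeR, and 2 of them (Arntl and Bhlhe40) had an unadjusted p under 0.05. Between the dark groups, CT23 and CT17, both tools again called 0 members, against 0.269% of all genes, and only Ciart had an unadjusted p under 0.05.

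Ciart, the gene of the ARNTL-binding repressor CHRONO, was not called anywhere. It had 6.48, 6.34, 6.53 and 6.56 CPM after 0.5 h of light, against 6.44, 5.41, 5.27 and 5.40 CPM in CT17 dark libraries. The 1 h libraries had 8.21 and 7.02 CPM, the 3 h libraries 5.96 and 6.11 CPM and the 6 h libraries 10.3 and 8.12 CPM, with 7.07 and 7.71 CPM in CT23 dark libraries. The 1 h libraries lay above all CT17 dark ones and the 6 h libraries above both CT23 dark ones, while the 0.5 h and 3 h libraries overlapped those of CT17. Against the dark the log2 change was 0.21 at 0.5 h, 0.41 at 1 h, 0.07 at 3 h and 0.31 at 6 h. Leaving out 1 library moved the 3 h value to between 0.01 (without CT17 dark replicate 2) and 0.17 (without CT17 dark replicate 1), and the 6 h value to between 0.13 (without 6 h replicate 1) and 0.47 (without 6 h replicate 2). The step between 6 h and 3 h, 0.61 ± 0.15, was larger than that of any other member but missed the threshold (adjusted p = 0.125). The change between CT23 and CT17 in the dark was 0.37 ± 0.14 (adjusted p = 0.415).

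**Figure D2:**
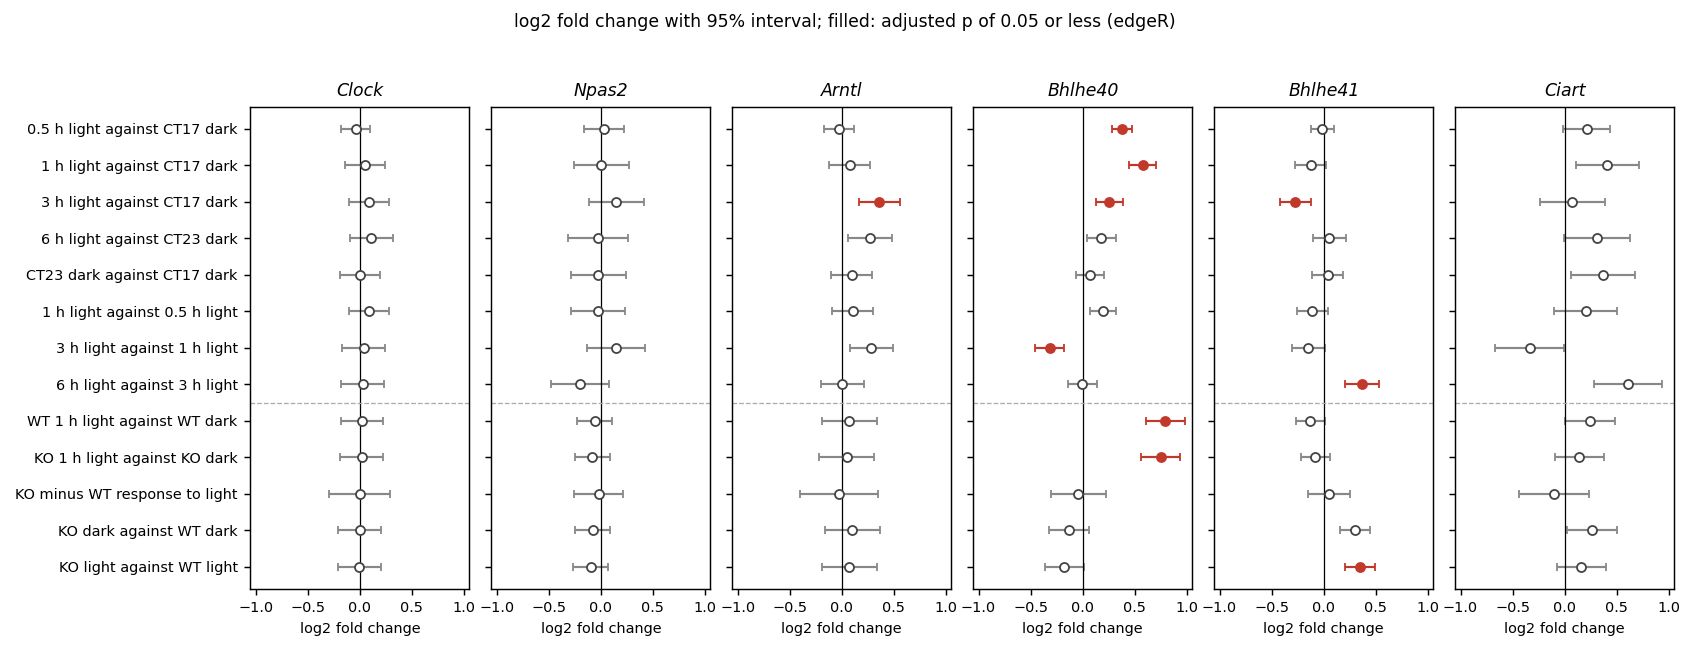
log2 fold change (x axis) of each gene, 1 panel per gene, in the 13 pairwise and interaction comparisons (rows; light-pulse experiment above the dashed line, Npas4 experiment below), with 95% intervals; filled points have an adjusted p of 0.05 or less. Bhlhe40 is filled in 6 rows, Bhlhe41 in 3, Arntl in 1, and Clock, Npas2 and Ciart in none.

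The Npas4 experiment asked whether the response to 1 h of light depends on Npas4. The targeted gene itself was counted in every KO library. Npas4 had 4.55, 7.63 and 5.19 CPM in KO light libraries, against 13.7, 10.7 and 13.996 CPM in WT light libraries, lower in 3 of 3 (log2 change -1.14 ± 0.24, adjusted p = 0.0663). In the dark it had 5.27, 10.1 and 10.4 CPM in KO libraries and 8.64, 8.20 and 8.34 CPM in WT libraries, a log2 change of 0.04. As the deleted part of the gene is not given, reads outside it cannot be told from those inside it, and the genotype is taken from the labels.

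Bhlhe40 rose with light in both genotypes. In KO mice it had 61.4, 71.0 and 65.5 CPM in light libraries, against 40.5, 37.7 and 39.6 CPM in dark libraries (log2 change 0.75 ± 0.09, 1.68-fold, adjusted p = 0.000351). In WT mice it had 83.1, 69.7 and 70.7 CPM in light libraries, against 47.9, 40.9 and 40.5 CPM in dark libraries (0.79 ± 0.09, 1.73-fold, adjusted p = 0.000123). In each genotype all 3 light libraries lay above all 3 dark ones. No other member was called in either, where 1.56% of all genes were called in KO and 2.57% in WT mice. The difference between the responses, KO minus WT, was -0.04 with a 95% interval from -0.31 to 0.22. For that difference edgeR and DESeq2 called 0 members, none had an unadjusted p under 0.05, and 0.0133% of all genes were called. Averaged over the genotypes the response of Bhlhe40 was 0.77 ± 0.06 (adjusted p = 4.12e-06; 1 of 6 members, against 3.87% of all genes), a contrast added after seeing the data.

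Bhlhe41 was higher in KO than in WT libraries. It had 87.6, 89.1 and 79.8 CPM in KO light libraries, against 66.1, 70.9 and 64.6 CPM in WT light libraries (log2 change 0.35 ± 0.07, 1.27-fold, adjusted p = 0.0428; 1 of 6 members, against 0.467% of all genes). It had 86.4, 97.6 and 87.1 CPM in KO dark libraries, against 75.0, 74.7 and 70.6 CPM in WT dark libraries (0.30 ± 0.07, adjusted p = 0.0672). All 6 KO libraries lay above all 6 WT libraries. In the dark, where edgeR called 0 members and 0.753% of all genes, 2 members (Bhlhe41 and Ciart) had an unadjusted p under 0.05, and DESeq2 called 1, Bhlhe41, with adjusted p = 0.00501. With the replicate number as a block in the fit, edgeR called Bhlhe41 in the dark as well (adjusted p = 0.00203). Leaving out any of the 6 light libraries gave a light difference of 0.32 to 0.39 with adjusted p between 0.0568 and 0.232. Averaged over dark and light, in a contrast added after seeing the data, Bhlhe41 was higher in KO by 0.32 ± 0.05 (1.25-fold; 87.9 ± 5.71 CPM in KO and 70.3 ± 4.30 CPM in WT libraries, SD, n = 6 each; adjusted p = 0.00249), the only member called, against 1.93% of all genes. Leaving out any of the 12 libraries kept this difference between 0.29 and 0.35 with adjusted p of at most 0.0117.

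Some markers of SCN neurons were also higher in KO libraries. The sum of the list was 2411 to 2783 CPM in KO light and 1619 to 2171 CPM in WT light libraries, and 2008 to 3048 CPM in KO dark and 1356 to 1909 CPM in WT dark libraries. Without Avp it was 1934 to 2295 CPM in KO light and 1360 to 1598 CPM in WT light libraries, and 1451 to 2505 CPM in KO dark and 1070 to 1703 CPM in WT dark libraries, where the groups overlapped. Of the 9 markers 3 were called higher in KO over dark and light and none lower: the neuropeptide gene Nms (log2 change 1.48), Prok2 (2.41), which encodes a secreted output signal of the SCN, and Rgs16 (1.53), which encodes a regulator of G-protein signalling. Prok2 was low and its genotypes overlapped, with 3.86 to 44.0 CPM in KO and 0.492 to 18.4 CPM in WT libraries over dark and light. Those of Nms and Rgs16 did not overlap. The transcription-factor genes Lhx1, Six3 and Six6 had log2 changes of 0.01, 0.06 and -0.15 (none called). Summed meningeal fibroblast markers were 61.2 to 71.3 CPM in KO light and 66.7 to 79.8 CPM in WT light libraries, and 61.2 to 268 CPM in KO dark and 68.7 to 86.5 CPM in WT dark libraries. The median log2 change of these 8 markers was 0.91 for KO dark against WT dark and -1.19 for KO light against KO dark, with none called. The part of either list in the Bhlhe40 and Bhlhe41 results was not tested.

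The light response of Bhlhe41 was -0.08 in KO (adjusted p = 0.961) and -0.13 in WT mice (adjusted p = 0.622). Averaged over the genotypes it was -0.10 (adjusted p = 0.374). With the replicate number as a block in the fit, this averaged response passed, at the same -0.10 (adjusted p = 0.0468 by edgeR). For Bhlhe40 the genotype differences were -0.18 in the light (adjusted p = 0.877) and -0.13 in the dark (adjusted p = 0.751), and neither passed. In the dark its KO libraries lay below its WT libraries, the nearest at 40.51 and 40.53 CPM, and in the light the genotypes overlapped. Averaged over dark and light the difference of Bhlhe40 was -0.15 ± 0.06, which did not pass either (adjusted p = 0.324 by edgeR).

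**Figure D3:**
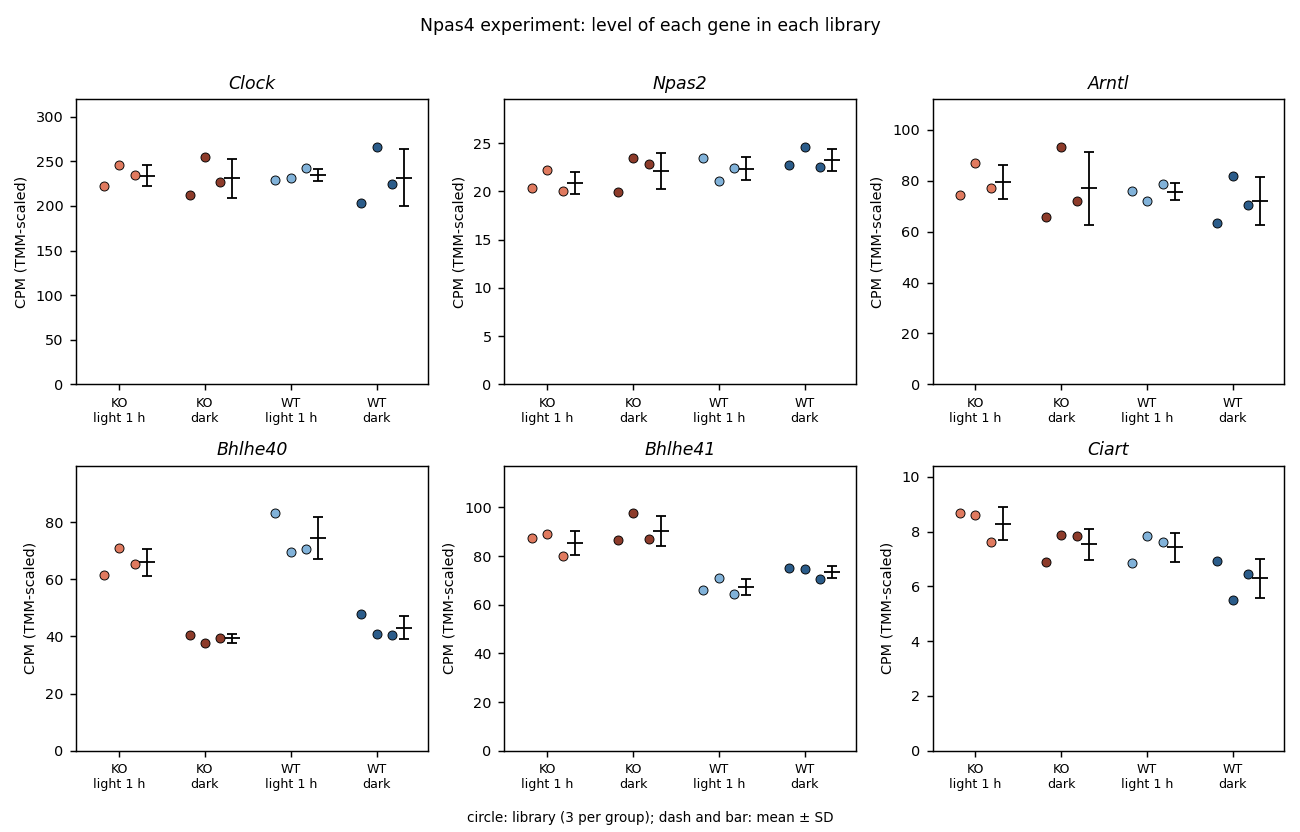
Level of each of the 6 genes in the 12 libraries of the Npas4 experiment, in CPM on the TMM-scaled total (y axis, from 0), by group along the x axis, with mean and SD. Bhlhe40 separates light and dark in both genotypes, and Bhlhe41 separates KO and WT libraries, with 79.8 to 97.6 CPM in KO and 64.6 to 75.0 CPM in WT.

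The activators and Ciart showed no called difference with light or genotype. Clock averaged 234 ± 11.5 CPM in KO light, 231 ± 21.8 in KO dark, 235 ± 7.10 in WT light and 231 ± 31.8 in WT dark libraries (SD, n = 3 each). Npas2 averaged 20.9 ± 1.16 CPM in KO light, 22.1 ± 1.88 in KO dark, 22.3 ± 1.19 in WT light and 23.3 ± 1.153 in WT dark libraries. Arntl averaged 79.6 ± 6.65 CPM in KO light, 77.1 ± 14.4 in KO dark, 75.7 ± 3.33 in WT light and 72.0 ± 9.35 in WT dark libraries. All of these groups overlapped except those of Npas2 in KO light and WT dark, which no test compares. Ciart had 8.67, 8.60 and 7.61 CPM in KO light, 6.89, 7.89 and 7.83 CPM in KO dark, 6.84, 7.82 and 7.61 CPM in WT light and 6.92, 5.51 and 6.47 CPM in WT dark libraries. Its light responses of 0.14 in KO and 0.24 in WT mice and its mean genotype difference of 0.21 ± 0.08 (adjusted p = 0.272) did not pass.

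**Figure D4:**
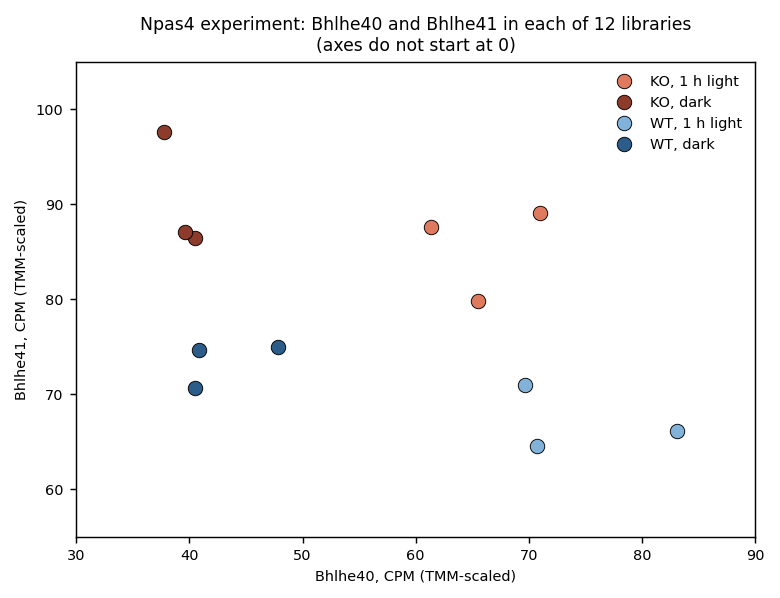
Bhlhe40 (x axis) against Bhlhe41 (y axis) in the 12 libraries of the Npas4 experiment, both in TMM-scaled CPM on axes that do not start at 0; each point is a library. Light and dark libraries are apart along the x axis (61.4 to 83.1 CPM in light and 37.7 to 47.9 CPM in dark), and KO and WT libraries along the y axis (79.8 to 97.6 CPM in KO and 64.6 to 75.0 CPM in WT).

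The ratio of the paralogs within a library does not depend on how libraries are scaled. In RPKM, Bhlhe40 to Bhlhe41 was 0.878 to 0.960 in CT17 dark libraries, 1.13 to 1.33 after 0.5 h, 1.41 to 1.59 after 1 h, 1.30 to 1.35 after 3 h and 0.955 to 1.10 after 6 h of light, with 0.938 and 0.944 in CT23 dark libraries. In this experiment the RPKM of Bhlhe40 was thus below that of Bhlhe41 in every dark library and above it in every light library up to 3 h. That order rests on the gene lengths behind RPKM, 4705 bases for Bhlhe40 and 6720 bases for Bhlhe41. In read counts, only 1 h replicate 2 of these light libraries had more Bhlhe40 (1035) than Bhlhe41 (929). In the Npas4 experiment the ratio was 1.00 to 1.17 in KO light and 0.552 to 0.669 in KO dark libraries, and 1.40 to 1.79 in WT light and 0.782 to 0.912 in WT dark libraries. No 2 of these 4 groups overlapped. The difference in mean log2 ratio was -0.52 for KO light against WT light and -0.43 for KO dark against WT dark, and it was 0.82 for light against dark in KO and 0.92 in WT mice. By a two-sided exact permutation test each of these 4 differences had p = 0.1, the smallest that 3 against 3 libraries can give. At 0.5 h the difference was 0.40 with exact p = 0.0286, the smallest that 4 against 4 can give, and 0.167 after adjustment over 10 comparisons. That test counts same-numbered libraries with and without the suffix s as separate, although they may share pools. With these smallest p-values no comparison of ratios could pass after adjustment. The mean log2 ratio of Clock to Npas2 moved by -0.07 to 0.10 in the same comparisons. Its lowest exact p, 0.1 for KO light against KO dark, is again the smallest possible there (0.167 after adjustment). In that comparison the ratios did not overlap, with 3.81 to 4.08 in KO light and 3.47 to 3.79 in KO dark libraries, and in the others they did.

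**Figure D5:**
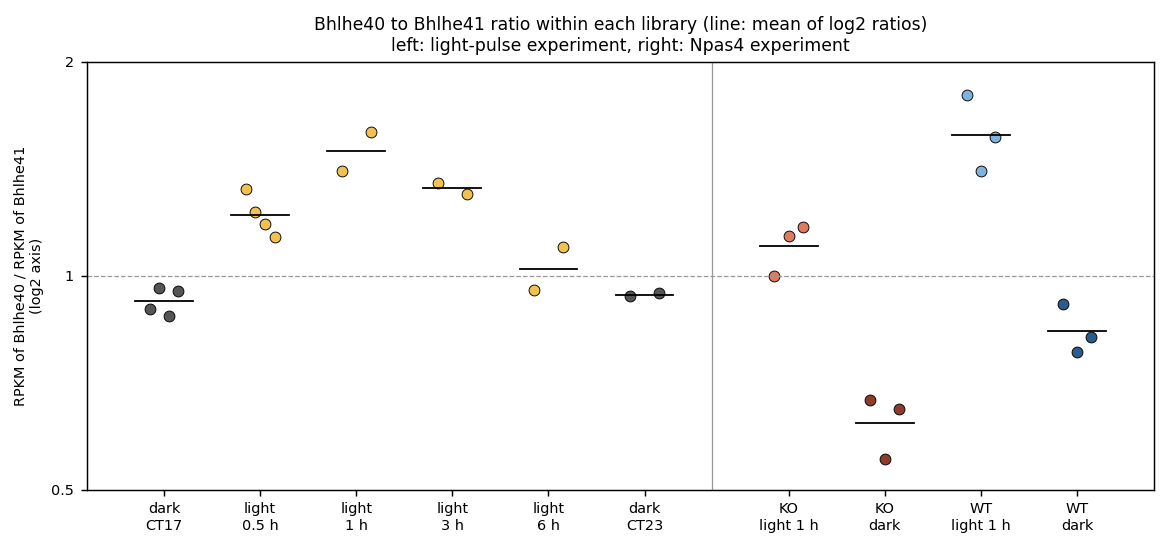
Ratio of Bhlhe40 to Bhlhe41 RPKM within each library (y axis, log2 scale; the dashed line marks equal levels), by group along the x axis; each point is a library and each line the mean of the log2 ratios. The ratio is highest at 1 h in the light-pulse experiment (1.41 to 1.59), and in the Npas4 experiment KO libraries lie below WT libraries of the same lighting.

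Other genes of the clock give the setting of these changes. A list of 19 was followed, and all 19 were tested. At 0.5 h of light 1 was called, Per1 (log2 change 0.87), the Period gene that light induces first. At 1 h 3 rose and none fell, led by Per1 (1.74) and Per2 (0.69). At 3 h 5 rose and 3 fell, with Fbxl21, which encodes an F-box protein that targets cryptochromes, up by 1.35 and Rora, which encodes an activator of Arntl, up by 1.35. At 6 h against CT23 dark 3 rose and none fell, led by Fbxl21 (1.77) and Per2 (1.40). Between CT23 and CT17 in the dark 1 rose, the REV-ERB gene Nr1d1 (0.84), and 1 fell, Per3 (-0.48). The median log2 change of the list was -0.05, 0.03, -0.06, 0.03 and -0.08 in these 5 comparisons, against -0.01, -0.01, -0.02, 0.00 and -0.01 over all genes.

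Between light groups 3 of the 19 rose and none fell between 1 h and 0.5 h, led by Per1 (0.87) and Rora (0.77). Between 3 h and 1 h 4 rose and 1 fell, with Fbxl21 up by 1.19 and Per1 down (-1.12), the direction also taken by Bhlhe40. Between 6 h and 3 h 3 rose and none fell, led by Nr1d1 (0.64) and the D-box factor gene Dbp (0.61). With 1 h of light 2 rose in KO mice, Per1 (1.74) and Per2 (0.64), and 3 in WT mice, led by Per1 (2.16) and Per2 (1.29), and none fell in either genotype alone. Averaged over the genotypes 4 rose, led by Per1 (1.95) and Per2 (0.97), and 1 fell, Dbp (-0.29, adjusted p = 0.00662 by edgeR), a gene named after its value was seen. None of the 19 was called for the difference between these responses or between KO light and WT light. In the dark Per2 was higher (0.48) and Per3 lower (-0.38) in KO than in WT libraries. Over dark and light together 1 was higher in KO, Nr1d1 (0.56), and 2 were lower, led by Per3 (-0.34).

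Genes with the most similar pattern were taken over 24 libraries (12 from each experiment, leaving out those with the suffix s), by Pearson correlation of log2 CPM centred within each experiment, among 14476 genes. The libraries share groups, depth and composition, so the values are given as a description without a p. Closest to Bhlhe40 were Cwc25 (r = 0.952), Tiparp (r = 0.952) and Rrad (r = 0.951). Closest to Bhlhe41 were Abca6 (r = 0.867), Ppef1 (r = 0.779) and Gdpd1 (r = 0.771), and closest to Arntl were Dlk1 (r = 0.923), Dgkh (r = 0.912) and Pde7b (r = 0.910). Clock was closest to Xrn1 (r = 0.904), Ralgapa1 (r = 0.899) and Anapc1 (r = 0.898). For Npas2 the highest were Acvr2b (r = 0.751), Arhgap39 (r = 0.748) and Cacna1a (r = 0.738), and for Ciart Glipr2 (r = 0.683), Id2 (r = 0.664) and Odc1 (r = 0.664). Among the members themselves Clock and Arntl had the highest correlation (r = 0.80) and Bhlhe40 and Bhlhe41 the lowest (r = -0.44).

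Chromatin marks were read at the same genes from the authors' peak lists, 1 per mark and lighting, so that they describe single samples. Peak heights are the authors' fold enrichments and are ranked only within a list. Within 1 kb of a start site, H3K4me3 peaks lay at 5 of the 5 members with a start site given, in light and in dark, where 48.5% and 49.7% of 27025 genes had one. H3K27ac peaks lay at 5 of 5 in light and 4 of 5 in dark, where 35.8% and 36.3% of genes had one. These shares are over all genes with a start site given, whether or not expressed in SCN, while all members passed the filter on low counts. The share among expressed genes was not computed.

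Ciart was the member without an H3K27ac peak in the dark list. In the light list it had a single peak of 191 bases at chr3:95882991-95883181, outside the promoter window printed above, with a fold enrichment of 5.77 at the 65.0 percentile of its list. Its H3K4me3 peak, chr3:95881104-95883241 in the light list, spans the window and its 3 E-boxes. Around Bhlhe41 an H3K27ac peak at chr6:145864736-145865515 in the light list covers the start site and part of the printed window, and 1 H3K4me3 peak at the start site covered 6121 bases in light and 5759 bases in dark. H3K4me3 peaks that overlapped the gene span with 1 kb on either side had a full length of 6121 bases in light and 6359 bases, in 2 peaks, in dark. The Bhlhe40 gene is at chr6:108660629-108666925 in RefSeq. With 1 kb on either side, 3 H3K27ac peaks of the light list and 3 of the dark list overlapped it. Their full lengths, with parts outside that region, came to 3235 bases in light and 3690 in dark. The highest of the 3 in each list stood at the 96.6 percentile of its list in light and the 96.0 percentile in dark. Both lay at lower coordinates than the gene span. At Arntl the highest H3K27ac peak near a start site stood at the 96.3 percentile in light and the 96.2 percentile in dark, at Clock at 93.1 and 94.8, and at Npas2 at 87.0 and 74.6.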

How the data were processed

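Bulk RNA-seq of mouse SCN was analysed from 28 libraries, with 1 peak list per histone mark and lighting. The authors deposited raw read counts per gene and RPKM (read counts scaled by gene length and library total). The deposited peak lists give a fold enrichment (a ratio over background) and a −log10 q-value per peak. The submitters' processing notes name STAR 2.7.1a and 2.5.2b, HTSeq 0.9.1, featureCounts 1.6.2, BWA 0.7.16a, MACS2 2.1.1 and build mm10, without roles, and strand use in counting is not given in the sources used here. The 18 single-nucleus samples and 2 inputs were not analysed here.

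Counts were tested in edgeR 4.0.16 (R 4.3.3, limma 3.58.1) with TMM scaling, its filter on low counts and the quasi-likelihood test. The light-pulse fit had group and title suffix as terms, the Npas4 fit group alone. P-values were Benjamini-Hochberg adjusted over all genes tested and called at 0.05 or less. An SE is the log2 change divided by the square root of F, and intervals are 95%. CPM are counts scaled to the TMM-adjusted library total. Ratios of RPKM were tested by exact permutation in SciPy 1.17.1. The fits were tested on simulated data. Named genes are the 6 members, Npas4, the 3 genes most correlated with each member, and the 2 clock genes with the largest called change in each comparison. The markers of SCN neurons fall outside this rule and were named after their values were seen. Members and gene lists were chosen with earlier results of these data known. Alternatives were RLE scaling, no filter, DESeq2 1.42.0, other batch terms, library subsets, a replicate block and leaving out each library. For 0.5 h against CT17 dark, same-numbered libraries were also summed.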

Additional observations from a re-analysis of the deposited data

Results flagged for a closer look

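In the 0.5 h light group, Clock had 239 CPM in replicate 1 without the suffix s, while the other 3 libraries had 193 to 196 CPM. Its gap to the nearest library was above Dixon's critical value for 4 samples. In the CT17 dark group, Ciart had 6.44 CPM in replicate 1 without the suffix, while the other 3 libraries had 5.27 to 5.41 CPM, again a gap above that value. These are 2 of 16 groups tested in this way (each member in each group of 4 libraries, and the ratios), and chance flags about 1 in 20.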

How the results depend on the processing

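Of 516 values of single genes under alternatives that kept all libraries or a named subset, 482 stayed on the same side of the threshold with the same sign, 13 lost the call and 3 gained it. None of the called values changed sign, and 18 uncalled ones did. With 1 library left out, 530 of 624 stayed, 32 lost the call and 62 uncalled values changed sign. With label batch and suffix together 0 members were called at 1 h and 0 at 3 h, against 1 and 3. With only the libraries without the suffix 0 were called at 0.5 h, 0 at 3 h, 0 for 3 h against 1 h and 0 for 6 h against 3 h, against 1, 3, 1 and 1; fewer libraries entered these fits. With each library left out in turn the count was 0 throughout at 3 h, for 3 h against 1 h, for 6 h against 3 h and for KO against WT in the light. DESeq2 called 1 member for KO against WT in the dark, against 0. The log2 difference of Clock to Npas2 at 0.5 h ran from -0.14 to 0.01 with 1 library left out, against -0.07.

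Same-numbered libraries of the Npas4 experiment correlated by -0.02 to 0.50 (median 0.195, 18 pairs) in their deviations from the group means. Libraries of other numbers correlated by a median of -0.109 (36 pairs), and 12 of 12 libraries correlated best with their own number. What the numbers share is not given, so the main fit had no block for them, and its p-values leave out any pairing. In the light-pulse experiment the correlations of same-numbered libraries ran from -0.14 to 0.29. With the replicate number as a block, 1 member was called for KO against WT in the dark (Bhlhe41, adjusted p = 0.00203 by edgeR) and 2 for light against dark over both genotypes (Bhlhe41 in addition, -0.10, adjusted p = 0.0468), against 0 and 1. The block changed no other count of members, and the cause of these changes was not tested.

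The number of genes called over the whole table varied more, from 44 to 86 at 0.5 h (68 as reported), from 61 to 1218 at 1 h (184), 66 to 1664 at 3 h (471), 114 to 295 at 6 h (205), 6 to 1056 for 1 h against 0.5 h (72), 122 to 301 for 3 h against 1 h (222), 50 to 116 for 6 h against 3 h (92), 3 to 89 for CT23 against CT17 (39), 110 to 463 for KO against WT in the dark (113), 70 to 227 in the light (70), 269 to 1082 over both (289), 368 to 755 for light in WT (386), 231 to 452 in KO (234), 551 to 1239 over both (580) and 1 to 11 for the difference between these responses (2). Depth limits Ciart most, with 71 reads in its lowest library. A wider window of 5 kb, or only peaks with a −log10 q of 5 or more, gave the same counts of members with a peak.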
